A study of Mus musculus with 4 samples.

Results

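The genes described here are the 4 mouse LGI genes, Lgi1 to Lgi4, and the genes of their ADAM receptors, Adam11, Adam22 and Adam23. These 7 genes were chosen by name from the 24411 genes of the count table, with earlier results in view, because Lgi1 and Lgi2 lay on opposite sides of the genotype difference. Their differences between genotypes are therefore given as a description, and no p-value is printed for them. All 7 passed the filter on low counts, which left 15359 genes.

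Messenger RNA was sequenced from dissected mouse cochlea at postnatal day 7. The groups were Heterozygous and Homozygous animals of an Otof knockout, with no other agent or allele named and no wild-type group. Each genotype was represented by 2 libraries, each made from 2 to 3 pups whose cochleas of either side were combined, so a value is the average of a pool and not of an animal. Neither the strain nor the type of Otof allele is given in the sources used here. Otoferlin, the product of Otof, is the calcium sensor of glutamate release at the inner hair cell synapse.

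LGI proteins are secreted proteins made of leucine-rich repeats followed by a propeller of EPTP repeats. They bind members of the ADAM22 group, membrane proteins that carry a metalloprotease-like domain without protease activity. In the mouse brain LGI1 links ADAM22 and ADAM23 across the synapse, and through ADAM22 it is tied to PSD-95 scaffolds, AMPA receptors and Kv1 potassium channels. In peripheral nerve LGI4 from Schwann cells acts on ADAM22 of axons to drive myelination.

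Estimated counts per library ranged from 31509349 to 38090726 in total, and levels are given as counts per 1000000 (CPM) on scaled library sizes. Otof counts were 86 and 83 for the heterozygous and 5 and 9 for the homozygous pools, which matched the genotype labels. Of 8 hair cell markers 4 were nearly absent from the labelled cochlea. These were Pou4f3, Slc26a5, Tmc1 and Cabp2, which stayed under 1 CPM in each of the 4 libraries. Of the others, beside Otof, Myo7a had 31.2 to 46.1 CPM, Slc17a8 6.83 to 15.4 CPM and Myo6 107.5 to 158 CPM. Markers of neurons and Schwann cells were abundant. The homozygous pools differed in sex-linked transcripts, with 2 counts of Xist in replicate 1 and 19085 in replicate 2, while both heterozygous pools held Xist and Ddx3y. Replicates are separate pools per the labels, and with 2 against 2 an exact two-sided permutation test cannot give a p below 0.333.

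Promoter sequence from RefSeq (GRCm38.p6) was available for 4 of the 7 genes, and the stretches of Lgi1 and Lgi2 are shown because these genes carry the opposite differences. Each stretch ends just before the first base that GENCODE M21 annotates for the gene, and capitals mark CpG dinucleotides. Lgi1 is read on the plus strand of chr19:38264437-38264535 and Lgi2 on the minus strand of chr5:52566463-52566556.
Lgi1: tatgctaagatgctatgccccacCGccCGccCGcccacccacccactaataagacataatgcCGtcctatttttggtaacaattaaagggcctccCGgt
Lgi2: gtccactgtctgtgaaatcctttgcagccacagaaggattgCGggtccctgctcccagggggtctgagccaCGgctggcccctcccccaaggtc

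The printed stretches hold 5 CpG in 99 bases for Lgi1 and 2 in 94 bases for Lgi2. Over the whole RefSeq window of 300 bases, which reaches into the gene, Lgi2 held more, with 27 CpG and 73.3% G and C against 13 CpG and 54.0% for Lgi1. The windows of Adam22 and Adam23 held 19 and 31 CpG, and the median of all 32851 windows was 7. On either strand, the letters GGGCGG of the GC box occurred 3 times in the Lgi1 window and 2 times in the Lgi2 window, as in 35.7% of all windows at least once. In the printed Lgi1 stretch such matches, read on the other strand, share bases within a single run. The count for Lgi1 is therefore not read as a number of separate sites. The letters CCAAT occurred once in the Lgi2 window and not in the Lgi1 window (37.4% of all windows). TATAAA (13.6% of windows) and TGACG (20.8%), the core of the cAMP response element, were in none of the 4 windows.

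Among the ligands, Lgi1, the ligand whose loss causes epilepsy in mice and in people, was higher in the homozygous cochleas. It lies on chromosome 19 (38264536 to 38312214, plus strand, GRCm38). Its level was 15.9 and 20.7 CPM in heterozygous replicates 1 and 2, and 38.7 and 35.2 CPM in homozygous replicates 1 and 2. Both homozygous pools stood above both heterozygous pools, and the pools of a genotype lay closer to each other than to the other genotype. The mean was 18.3 ± 3.4 CPM for heterozygous and 37.0 ± 2.5 CPM for homozygous pools (SD, n = 2), a 2.02-fold higher level. The log2 fold change, homozygous over heterozygous, was 1.01 ± 0.16 (SE).

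Lgi2, a family member mutated in a juvenile epilepsy of dogs, was lower in the homozygous cochleas. It lies on chromosome 5 (52533517 to 52566462, minus strand). It had 36.5 and 33.0 CPM in heterozygous replicates 1 and 2, and 10.4 and 11.9 CPM in homozygous replicates 1 and 2. The groups did not overlap, and the lowest heterozygous pool was well above the highest homozygous pool. The mean went from 34.8 ± 2.5 to 11.2 ± 1.1 CPM (SD, n = 2), a level 3.12-fold higher in heterozygous pools, with a log2 fold change of -1.64 ± 0.13 (SE).

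The order of these ligands was thus exchanged between genotypes. Lgi2 reads were 2.30 and 1.59 times those of Lgi1 in the heterozygous pools and 0.268 and 0.339 times those of Lgi1 in the homozygous pools. Neither count ratio is corrected for gene length. Of the 15359 genes tested, 125 had a higher fold change than Lgi1 and 146 a lower fold change than Lgi2. Since both genes were chosen for these differences, nothing is read from their ranks. The authors' deposited table lists 343 genes and names these 2 members, with log2 fold changes of 1.02 for Lgi1 and -1.63 for Lgi2. It comes from this same series, and its label mentions removed outliers without saying which. Its limits were an adjusted p of 0.01 and a log2 fold change of 0.5 in size. The absence of the other members is therefore not read as a lack of difference.

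Lgi3, which in mouse myelinated axons has been linked with ADAM23 to Kv1 channel clusters, was lower in the homozygous pools but uneven between them. Its level was 131 and 110 CPM in heterozygous replicates 1 and 2, and 97.3 and 49.7 CPM in homozygous replicates 1 and 2. The groups did not overlap, yet homozygous replicate 1 was nearer to the heterozygous pools than to its own replicate. The homozygous pools differed 1.96-fold, and the log2 fold change of -0.71 ± 0.33 (SE) became -1.29 without homozygous replicate 1 and -0.30 without homozygous replicate 2.

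Central glia markers also differed between the homozygous pools, with replicate 2 the lower. The sum of 9 such markers was 1762 and 1658 CPM in the heterozygous pools, 1463 CPM in homozygous replicate 1 and 468 CPM in homozygous replicate 2. Both homozygous pools thus lay below both heterozygous pools. Of the 9 markers, 7 were lower in both homozygous pools, beside 24.5% of all genes, and 0 were higher in both. DESeq2 called 2 of the 9 lower and 0 higher, beside 3.16% and 0.986% of all genes. None of the 9 was under 1 CPM in every library. Mog, a myelin protein of oligodendrocytes, had 132, 111, 105 and 21.2 CPM in the same order. Relative to this marker sum Lgi3 had log2 ratios of -3.74 and -3.92 in heterozygous and -3.91 and -3.24 in homozygous pools, which overlap. The part of central glia in the Lgi3 difference was not tested.

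Lgi4, the Schwann cell ligand, was the most abundant LGI transcript per read in the homozygous pools and did not separate the genotypes. Its level was 127 and 152 CPM in heterozygous replicates 1 and 2, and 157 and 146 CPM in homozygous replicates 1 and 2. The ranges overlapped, and the log2 fold change was 0.12 ± 0.11 (SE). Lgi4 shares 2059 exon bases with Fxyd3 on the opposite strand, which had 149 to 356 counts against 4519 to 6077 for Lgi4. The sources used here do not say whether the libraries kept strand, so the split of reads between these genes is uncertain. Lgi1 likewise shares 532 exon bases with the antisense gene Gm42723, which was not analysed here.

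**Figure D1:**
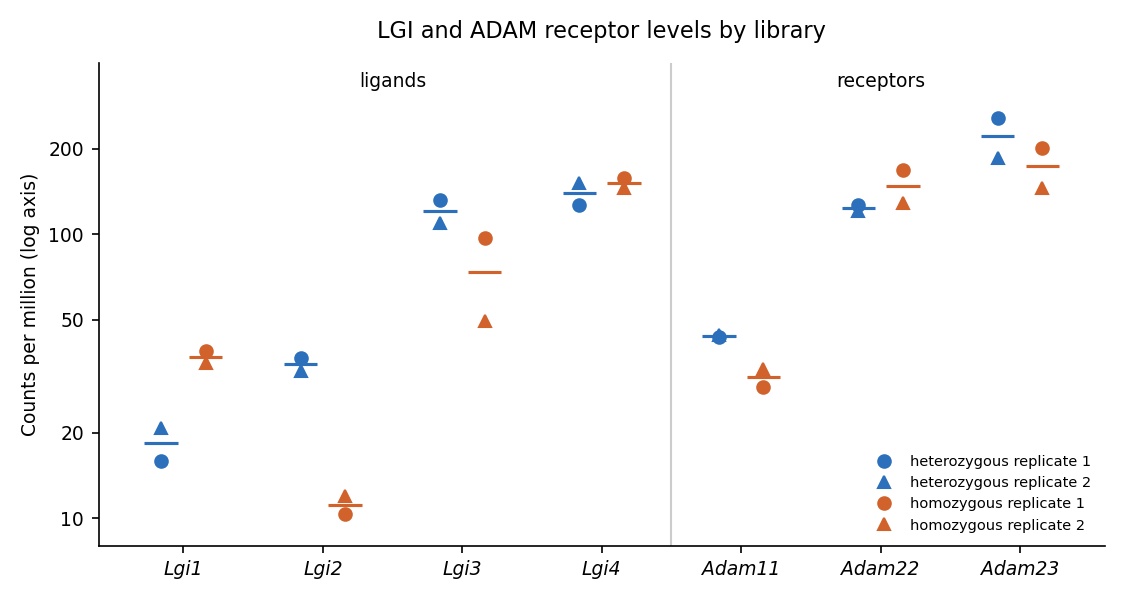
Level of each LGI ligand and ADAM receptor gene in the 4 libraries, in counts per 1000000 on a log axis, with horizontal lines at the mean of each genotype (n = 2 pools). Lgi1 lies between 15.9 and 20.7 CPM for heterozygous and between 35.2 and 38.7 CPM for homozygous pools, Lgi2 goes the other way, and Lgi4 and Adam23 overlap between genotypes.

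Among the receptors, Adam11 was lower in the homozygous pools. In mice its protein is needed for Kv1 channels to gather at the basket cell terminals of the cerebellum. It had 43.4 and 44.2 CPM in heterozygous replicates 1 and 2, and 29.1 and 33.7 CPM in homozygous replicates 1 and 2. The groups did not overlap, and the heterozygous pools were nearly equal. The mean was 43.8 ± 0.52 CPM for heterozygous and 31.4 ± 3.2 CPM for homozygous pools (SD, n = 2), a log2 fold change of -0.48 ± 0.10 (SE).

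Adam22, the receptor that binds PSD-95 inside the cell, had 126 and 120 CPM in heterozygous replicates 1 and 2, and 168 and 128 CPM in homozygous replicates 1 and 2. The groups did not overlap, but homozygous replicate 2 lay close to the heterozygous pools. The log2 fold change was 0.26 ± 0.14 (SE) and was 0.05 without homozygous replicate 1. Adam23, found mostly on the presynaptic side in the brain, had 257 and 185 CPM in the heterozygous pools and 202 and 145 CPM in the homozygous pools. These ranges overlapped, the pools differed 1.39-fold within either genotype, and the log2 fold change was -0.35 ± 0.23 (SE).

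Counted over both families, 5 of the 7 genes had separate ranges in the genotypes, as had 46.1% of all genes tested. Of these, 2 were higher in homozygous pools, beside 21.6% of all genes, and 3 were lower, beside 24.5%. DESeq2, the tool the submitters name, put 3 of the 7 past an adjusted p of 0.05, against 4.14% of all genes. Since the choice of the members used this difference, nothing is read from these counts. The median log2 fold change was -0.35 over the 7 genes and 0.01 over all genes tested.

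Per length of annotated exons, Lgi1 and Lgi2 were minor members of the ligand family in both genotypes. Counts per 1000 bases of exon union gave Lgi3 30.9 ± 3.9 and Lgi4 30.4 ± 3.8 CPM per kb in heterozygous pools, which do not differ beyond their spread (SD, n = 2). Adam23 followed at 12.3 ± 2.8, Adam22 at 8.61 ± 0.30, Adam11 at 7.73 ± 0.091, Lgi2 at 5.33 ± 0.38 and Lgi1 at 1.61 ± 0.30 CPM per kb. In homozygous pools Lgi4 came first at 33.0 ± 1.8 CPM per kb, and Lgi3 had 18.8 ± 8.6. Adam22 at 10.3 ± 1.9 and Adam23 at 9.68 ± 2.2 CPM per kb did not differ beyond their spread, Adam11 had 5.53 ± 0.57, and the last places were Lgi1 at 3.25 ± 0.22 and Lgi2 at 1.71 ± 0.17.

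The order of the larger members depends on the length used. With the principal transcript in place of the exon union, Adam22 came first in heterozygous pools, at 44.5 ± 1.5 CPM per kb (SD, n = 2), because its exon union of 14348 bases is far longer than its principal transcript of 2773 bases. Under that length too, Lgi1 was last in heterozygous and Lgi2 last in homozygous pools.

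As shares of the LGI sum per kb, Lgi2 held 8.17% and 7.42% in heterozygous and 2.47% and 3.70% in homozygous pools. Lgi1 held 2.05% and 2.68% in heterozygous and 5.31% and 6.27% in homozygous pools. The remainder was Lgi3 and Lgi4, of which Lgi4 took 40.5% and 48.6% in heterozygous and 53.4% and 64.3% in homozygous pools. Of the ADAM sum, Adam22 held 28.6% and 31.7% in heterozygous and 41.6% and 38.9% in homozygous pools. A share in a family also moves when another member moves, so the Lgi4 share differed while its own level overlapped.

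**Figure D2:**
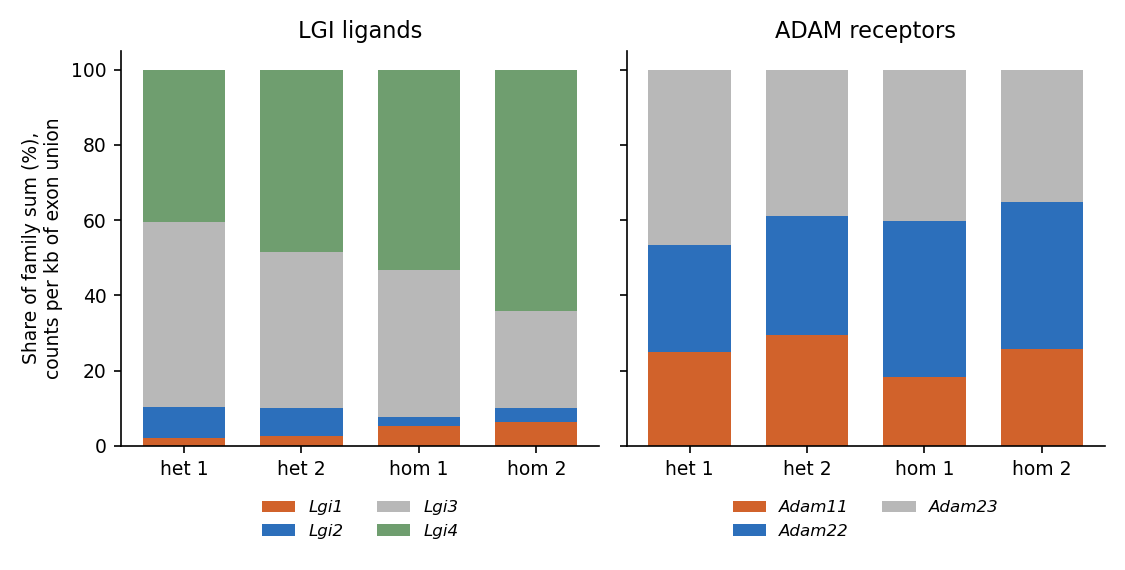
Share of each gene in the summed LGI ligands (left) and ADAM receptors (right), in percent of counts per kb of exon union, in each of the 4 libraries (het, heterozygous; hom, homozygous; 1 and 2, replicates). Lgi1 takes 2.05% and 2.68% in heterozygous and 5.31% and 6.27% in homozygous pools, and Lgi2 goes from 8.17% and 7.42% to 2.47% and 3.70%.

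Markers of neurons, Schwann cells and fibroblasts differed between genotypes, as did the central glia sum given above. The sum of 14 neuron markers was 8196 and 7905 CPM for heterozygous and 5584 and 5259 CPM for homozygous pools, and that of 8 Schwann cell markers 41285 and 42615 against 25102 and 20964 CPM. None of these markers was under 1 CPM in every library. By DESeq2 9 of the 14 neuron markers fell and 0 rose, and 5 of the 8 Schwann markers fell and 0 rose, where 3.16% of all genes fell and 0.986% rose. The Schwann markers did not all go one way. Sox10 overlapped between genotypes (log2 fold change 0.04). Foxd3 was higher in both homozygous pools, with 71.4 and 92.7 CPM for heterozygous and 108 and 115 CPM for homozygous pools (0.44). In such bulk tissue, fewer cells of a type and less RNA per cell cannot be told apart. Fibroblast markers went the other way, with 8603 and 7595 CPM for heterozygous and 11002 and 12028 CPM for homozygous pools in sum, and 4 of the 7 rose by DESeq2.

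Set against the neuron marker sum, Lgi2 was lower and Lgi1 higher in homozygous pools. The log2 ratio of Lgi2 to that sum was -7.81 and -7.90 in heterozygous and -9.07 and -8.78 in homozygous pools, a mean difference of -1.07. That of Lgi1 was -9.01 and -8.58 against -7.17 and -7.22, a difference of 1.59. The neurofilament genes Nefl, Nefm and Nefh are the most abundant of these markers and weigh most in the sum. Single neuron markers had log2 fold changes from -1.55 (Slc17a6) to 0.68 (Prph), 12 of the 14 being lower and 2 higher. That of Slc17a6 was near the -1.64 of Lgi2, so the Lgi2 difference depends on the markers used. Set against the central glia sum, Lgi1 was again higher in both homozygous pools, with -6.79 and -6.32 against -5.24 and -3.73. Lgi2 overlapped there, with -5.59 and -5.65 in heterozygous and -7.14 and -5.29 in homozygous pools, replicate 2 being the highest of the 4. Against the neuron marker sum the Adam11 difference was 0.09 and its ranges overlapped, with -7.56 and -7.48 in heterozygous and -7.59 and -7.29 in homozygous pools. This too depends on the markers used. The neuron markers Stmn2 (log2 fold change -0.13) and Map2 (0.17) overlapped between genotypes and differed less than Adam11 (-0.48). Set against the Schwann marker sum, Lgi4 had log2 ratios of -8.34 and -8.13 in heterozygous and -7.32 and -7.17 in homozygous pools, higher in both homozygous pools. The part of cell composition in the members' differences was not tested.

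Lgi2 and Adam22 lie on the chromosome of the targeted gene, at nearly equal distances on either side of it. The midpoint of Lgi2 is 22.1 Mb from that of Otof, and the midpoint of Adam22 is 22.2 Mb away on the other side. Within 25 Mb of Otof, DESeq2 called 14 of 255 genes lower, a count that includes Lgi2 itself, or 5.49%, beside 3.16% of all genes. The 255 are genes past the filter on low counts, while the share of all genes is over the 16028 with a DESeq2 adjusted p. It called 2 of the 255 higher, or 0.784%, beside 0.986% of all genes. Some of the genes called lower had larger drops than Lgi2. Among these were AI506816 (log2 fold change -5.90), Fam184b (-3.19), Otop1 (-2.47) and Kcnk3 (-2.40). The part of linkage to the Otof allele was not tested.

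The immediate neighbours of Lgi2 mostly had fold changes near 0. The 5 tested genes on either side had a median log2 fold change of 0.06. Sod3, extracellular superoxide dismutase, rose by DESeq2 from 20.5 to 33.4 CPM (adjusted p = 0.0126, and 0.203 by edgeR), and the other neighbours passed neither test. On the near side towards Otof were Dhx15 (log2 fold change 0.07), C130083M11Rik (-0.27), 9230114K14Rik (0.58) and Ccdc149 (0.17). On the far side were Sepsecs (-0.18), Pi4k2b (0.14), Zcchc4 (0.05), Anapc4 (0.04) and Slc34a2 (-1.36, at 0.712 and 0.272 CPM in the means). Around Adam22, the 10 neighbours had log2 fold changes from -0.39 to 0.32, and 0 passed DESeq2.

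**Figure D3:**
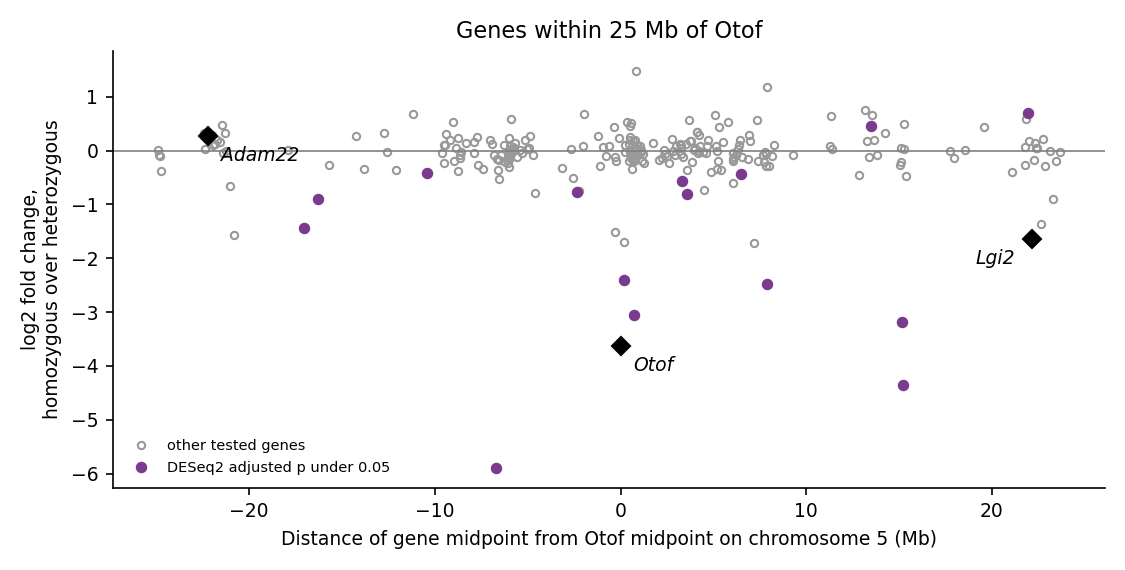
log2 fold change, homozygous over heterozygous, of the genes tested within 25 Mb of Otof on chromosome 5, against the distance between gene midpoints in Mb. Filled circles are genes with a DESeq2 adjusted p under 0.05 and diamonds are Otof, Lgi2 and Adam22. Lgi2, at 22.1 Mb, lies at -1.64, and the 5 tested genes on either side of it have a median of 0.06. The lowest gene of the window is at -5.90.

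The next comparison asked how the genes that work with LGI and ADAM proteins differed. In 8 lists with 71 genes tested, edgeR's quasi-likelihood test called 0 at an adjusted p of 0.05 (smallest 0.107), as it did over all 15359 genes, 0%. At an unadjusted edgeR p under 0.05 there were 4 higher and 16 lower, beside 4.36% and 8.91% of all genes. DESeq2 called 12 of the 71, of which 2 rose and 10 fell, beside 0.986% and 3.16% of all genes. "Rose" and "fell" below refer to DESeq2. Leaving out heterozygous replicate 1 gave 6 calls, heterozygous replicate 2 gave 8, homozygous replicate 1 gave 20 and homozygous replicate 2 gave 11. Of the 12 calls, 5 were kept in each of these 4 fits, those of Cacng5, Mbp, Pmp22 and Ncmap among them.

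Of the 10 genes listed for the Kv1 channel complex, Kcna6 rose and Kcna2 fell, and the median log2 fold change was -0.23. Kcna6, a Kv1 pore subunit, had 109 and 142 CPM for heterozygous and 213 and 225 CPM for homozygous pools (adjusted p = 5.61e-05 by DESeq2 and 0.163 by edgeR). Kcna2, a Kv1 subunit of juxtaparanodes, had 409 and 339 CPM against 260 and 220 CPM (adjusted p = 0.00395 by DESeq2 and 0.208 by edgeR). The Kcna6 call was lost without heterozygous replicate 1, and the Kcna2 call without heterozygous replicate 1 or homozygous replicate 2.

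Of the 9 scaffold genes, Lin7a rose and Lin7b fell, both encoding small PDZ proteins that bind CASK. The level was 42.3 ± 2.0 against 60.1 ± 7.5 CPM for Lin7a and 8.10 ± 0.47 against 3.74 ± 0.57 CPM for Lin7b (SD, n = 2, adjusted p = 0.0302 and 0.00545 by DESeq2, 0.208 and 0.159 by edgeR). Neither call was kept in any DESeq2 fit that left out a library. Dlg4, which encodes PSD-95, the scaffold that ADAM22 binds, had 110 ± 12 and 118 ± 2.0 CPM (SD, n = 2). Its log2 fold change was 0.10 ± 0.10 (SE), and it passed neither test. The median over the scaffold list was 0.04.

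Of the 10 AMPA receptor and auxiliary genes, Cacng5, a transmembrane regulator of AMPA receptors, fell. It went from 40.4 and 37.8 CPM to 19.9 and 17.4 CPM, a log2 fold change of -1.07 ± 0.11 (SE; adjusted p = 3.26e-08 by DESeq2 and 0.107 by edgeR). No gene of the list rose. The pore subunits Gria1, Gria2, Gria3 and Gria4 had log2 fold changes of 0.66, 0.03, -0.19 and -0.19 and passed neither test. Gria1 was uneven within a genotype, with 33.7 and 6.98 CPM in the homozygous pools. The median over the list was -0.17.

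The lists of relatives and of other binding partners held no gene past DESeq2. Of the other ADAM family genes 0 of 8 passed, with Adam12 (log2 fold change 0.56 ± 0.33, SE) the smallest in p, and the median was 0.01. The EPTP-repeat genes Tspear and Adgrv1, the latter mutated in a form of Usher syndrome, were low at 0.207 to 0.535 and 0.854 to 1.41 CPM and passed neither test. Of 10 other reported partners of LGI1 or ADAM22, 0 passed. Rtn4r, the Nogo receptor, had the smallest p, at 7.96 ± 1.3 and 4.45 ± 0.40 CPM (SD, n = 2, adjusted p = 0.0776 by DESeq2 and 0.228 by edgeR), and the list had a median of -0.21.

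Of the 15 genes of Schwann cell myelination, the process that LGI4 and ADAM22 serve, 5 fell and 0 rose. Among them were Mbp, Pmp22 and Prx, which encode proteins of the myelin sheath, and Ncmap, a membrane protein of noncompact myelin. Ncmap went from 197 ± 9.1 to 90.3 ± 24 CPM (SD, n = 2, adjusted p = 6.82e-06 by DESeq2 and 0.152 by edgeR). Mbp went from 11996 and 12037 CPM to 7239.5 and 4768 CPM. The log2 fold changes were -0.86 ± 0.12 for Pmp22 and -0.59 ± 0.12 for Prx (SE), and the median of the list was -0.38. The call of Prx was lost without heterozygous replicate 2. Sox10, the transcription factor of the Schwann lineage, had a log2 fold change of 0.04 ± 0.14 and Erbb3, the neuregulin receptor, of 0.30 ± 0.10 (SE), and neither passed.

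Of the 7 genes tested in the list of nodal and juxtaparanodal proteins, Scn8a, the sodium channel of nodes, and Nrcam, a nodal adhesion molecule, fell, and 0 rose. Scn8a had 97.4 ± 14 and 52.3 ± 12 CPM and Nrcam 76.6 ± 4.9 and 53.9 ± 6.8 CPM (SD, n = 2, adjusted p = 0.00125 and 0.0346 by DESeq2, 0.195 and 0.213 by edgeR). The Scn8a call was lost without heterozygous replicate 1, and the Nrcam call in 3 of the 4 fits that left out a library, kept only without homozygous replicate 1. The median over the list was -0.47. Epb41l3, an eighth gene of that list, was not analysed here.

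**Figure D4:**
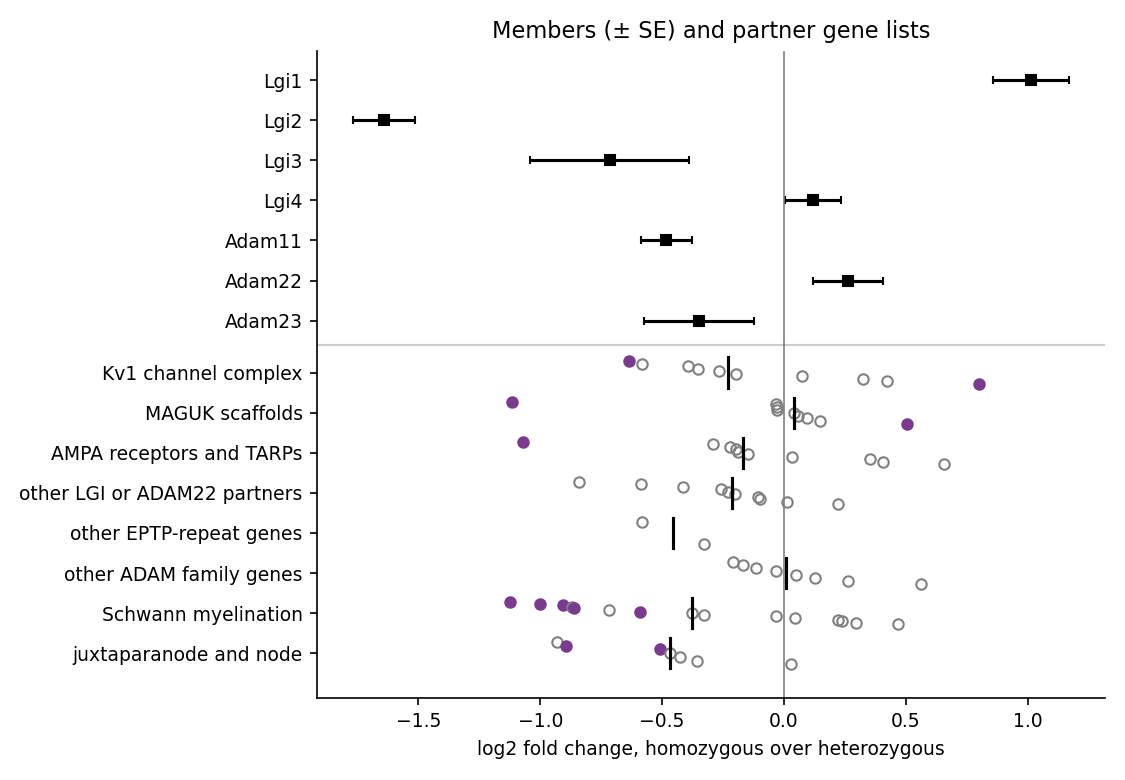
log2 fold change, homozygous over heterozygous, of the 7 members (squares, with the SE as bars) and of the genes of 8 partner lists (circles, filled where the DESeq2 adjusted p was under 0.05), with a vertical line at each list's median. Lgi1 is at 1.01 and Lgi2 at -1.64, and the 71 partner genes run from -1.13 to 0.80. The members were chosen for the differences of Lgi1 and Lgi2, so nothing is read from their place beside the partner genes.

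The genes of most similar pattern were taken by the smallest root-mean-square distance in centred log2 CPM over the 4 libraries, among 13305 genes. Nearest to Lgi1 were Rsph9 (distance 0.050), Best1 (0.054), Rph3a (0.057) and Jph4 (0.064). Rph3a, the vesicle protein rabphilin 3A, had 173 and 204 CPM for heterozygous and 403 and 350 CPM for homozygous pools. Nearest to Lgi2 were Cbln3 (0.072), Ache (0.076), Pmp2 (0.084) and Spint1 (0.086). Ache, acetylcholinesterase, had 61.5 and 60.0 CPM against 20.3 and 21.5 CPM, and Pmp2, a fatty acid carrier of Schwann cells, 91.2 and 78.1 CPM against 24.2 and 25.4 CPM. The 4 libraries share their tissue and depth, and this likeness is a description of 4 points.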

How the data were processed

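Estimated counts for each gene were deposited by the authors. The submitters' processing notes name Salmon and mm10, and the labels name nf-core, while the gene annotation used is not given. The authors' deposited DESeq2 table gives a mean normalised signal, a log2 fold change with its SE, a Wald score and p-values, per the file headers, for the 343 genes it lists. The members and gene lists were chosen with earlier results of these data known.

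Estimated counts were rounded. The fit across 15359 genes used edgeR 4.0.16 (quasi-likelihood, TMM scaling, filterByExpr, Benjamini-Hochberg adjustment, R 4.3.3) on genotype alone. The alternative was DESeq2 1.42.0 with its default Wald test. Its shares of all genes are over the 16028 genes to which it gave an adjusted p, and other shares of all genes are over the 15359. The SE is the one implied by edgeR's F statistic. CPM use TMM-scaled library sizes, and 3 counts, the limit a count of 0 allows, equal 0.0776 to 0.0943 CPM, for counting error only. Named were the members, every partner gene past either tool, the smallest p in lists with none, 5 neighbours on each side of Lgi2 and the 4 nearest patterns of Lgi1 and Lgi2. A gene that this rule takes is not reported here. Positions and lengths come from GENCODE M21 (GRCm38). Replicates differed beyond sampling noise, at a chi-square of 28.7 (heterozygous) and 47.3 (homozygous) per degree of freedom. The fits were tested on simulated counts. Alternatives were other scalings and filters, DESeq2, a replicate block, other lengths and leaving out each library.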

Additional observations from a re-analysis of the deposited data

How the results depend on the processing

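The fold changes of Lgi1, Lgi2, Lgi3, Adam11, Adam22 and Adam23 kept their sign in each of 15 alternatives, and that of Lgi4 in 14, with -0.0045 by edgeR without heterozygous replicate 1. Leaving out a library moved Lgi1 between 0.83 and 1.22, Lgi2 between -1.74 and -1.55, and Lgi3 between -1.29 and -0.30. The other alternatives gave 1.01 to 1.04 for Lgi1 and -1.64 to -1.62 for Lgi2. Without length the share of Lgi1 in the LGI sum was 5.84% in heterozygous and 13.6% in homozygous pools and that of Lgi2 11.1% and 4.17%. With the principal transcript, a length chosen after seeing the data, they were 2.93% and 7.16% for Lgi1 and 6.71% and 2.65% for Lgi2. The number of genes called was 0 by edgeR, 664 by DESeq2, and with a library left out 0 by edgeR, or 60 without homozygous replicate 1. By DESeq2 it was 224 and 169 without heterozygous replicate 1 or 2 and 687 and 307 without homozygous replicate 1 or 2. Partner genes called were 0 by edgeR, 12 by DESeq2, and with a library left out 0 by edgeR, or 3 without homozygous replicate 1, and in the same order 6, 8, 20 and 11 by DESeq2. The replicate numbers come from the labels, which do not say that they pair the pools, and same-numbered pools deviated together at r = 0.31 over genes. With the number as a replicate block edgeR called 495 genes and 8 partner genes, and DESeq2, added after seeing the data as were its fits with a library left out, 608 and 12. Of those 12 partner genes 9 were also called without the block, Adam12 and Adgrg6 were among those gained, Lin7a, Lin7b and Nrcam were lost, and Adam12 and Adgrg6 were also called by edgeR with it. Other scalings and filters left edgeR at 0. With 2 pools per genotype, small differences such as those of Lgi4, Adam22 and Adam23 were not resolved.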
